A study of Homo sapiens with 8 samples.

Results

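Genes that report the activity of the ERK pathway and feed back on it were followed across all libraries of the human samples (10 genes): *DUSP4*, *DUSP5*, *DUSP6*, *SPRY2*, *SPRY4*, *SPRED1*, *SPRED2*, *ETV4*, *ETV5* and *PHLDA1*. The genes were chosen by symbol, mapped to NCBI gene numbers in the count files, and make up 10 of the 25702 genes listed. All 10 passed the filter on low counts, which kept 14333 genes. The libraries are RNA-seq of SUIT2, a human pancreatic ductal adenocarcinoma (PDA) cell line of epithelial origin, carrying a scramble shRNA (shScr, 4 libraries) or shRNA number 1 or number 2 against the homeobox gene *EN1* (shEN1 #1 and shEN1 #2, 2 libraries each). The comparison asks how the transcriptome of this line differs when *EN1* is targeted. The labels do not say whether libraries of 1 group came from separate cultures, so the p-values measure only the spread between these libraries, which may be technical.

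ERK1 and ERK2 are the last kinases of the RAS-RAF-MEK-ERK cascade, which is active in most PDA. Active ERK induces the transcription of its own inhibitors. Among these, the dual-specificity phosphatases *DUSP4* and *DUSP5* act on MAP kinases in the nucleus and *DUSP6* removes phosphate from ERK in the cytoplasm. The Sprouty proteins *SPRY2* and *SPRY4* and the Sprouty-related *SPRED1* and *SPRED2* act upstream, between receptor tyrosine kinases, RAS and RAF. *ETV4* and *ETV5* are ETS transcription factors of the PEA3 group, and *PHLDA1*, which encodes a pleckstrin homology-like domain protein, is a growth factor-induced gene. The summed or individual transcripts of such genes are often read as a measure of ERK output.

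Because ERK also acts through ETS factors, the RefSeq promoters of these genes were searched for 1 form of the ETS core. Each promoter ran from 250 bases before to 50 bases after the start (GRCh38.p14). This form, called the core below, was CGGAA on the gene's strand or TTCCG where it lies on the other strand. Other forms around the shorter GGAA were not searched. Promoter entries were matched for 6 of the 10 genes (9 promoters), and *DUSP4*, *DUSP5*, *ETV4* and *ETV5* had no entry. The core was present in 4 of the 9 promoters, beside 34.9% of all 35116 promoters of the same length. The windows of the 3 promoters that held more than 1 core are printed below, each 5′ to 3′ on the gene's own strand with the core in capitals, because *DUSP6*, *SPRY2* and *PHLDA1* stand for a phosphatase, a Sprouty gene and an output gene.
DUSP6, core at -155 (chr12:89352640-89352668, minus strand): gcttatccggagCGGAAattcctttccgt
DUSP6, core at -144 (chr12:89352629-89352657, minus strand): gcggaaattcctTTCCGtttttgtgaatg
DUSP6, core at -61 (chr12:89352546-89352574, minus strand): ggcaacagccccTTCCGcagcacgctcat
SPRY2, core at -208 (chr13:80341318-80341346, minus strand): acaactgctctgTTCCGcctcggatccac
SPRY2, core at -141 (chr13:80341251-80341279, minus strand): ccctgcctcctcCGGAAaggcgagggcgc
PHLDA1, core at -89 (chr12:76031849-76031877, minus strand): gaggagaggagtTTCCGgggctcgggtcc
PHLDA1, core at -47 (chr12:76031807-76031835, minus strand): ggggaacgagcgCGGAAgcaagtgggcgg
The first *DUSP6* windows overlap, so that their cores lie in opposite orientations within a single stretch of sequence. The upstream *SPRED2* promoter held 1 core, 40 bases after the start, and no CGGAA or TTCCG was found in the promoters of *SPRY4* or *SPRED1*. A match to these 5 letters describes the sequence and does not show that a factor binds there.

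The targeted gene was examined before the ERK genes. *EN1* (gene 2019; chr2:119599747-119605224, minus strand, GRCh37) was at 4.10, 4.50, 4.94 and 2.51 CPM in replicates 1 to 4 of the shScr label, at 5.77 and 5.41 CPM under the shEN1 #1 label, and at 1.35 and 6.70 CPM under the shEN1 #2 label, where CPM are read counts scaled to a common library size with TMM factors. It was therefore lower than every shScr library in only 1 of the 4 libraries labelled shEN1 and higher than all of them in the other 3 (log2 fold change 0.26, standard error 0.43, edgeR adjusted p = 1.00). The 95% interval of this fold change ran from -0.7 to 1.22, on counts of 53 to 218, so a lower and a higher level both lie inside it. The study reports depletion of *EN1* in SUIT2 with independent shRNA constructs, measured by RT-qPCR. Since *EN1* was not shown to be lower under the shEN1 label in these libraries, every direction given here is a direction between labels. Whether the labels match the libraries was not tested, and each difference between labels holds only as far as they do. The library totals were between 33423590 and 37810604 counts. Replicate 4 of shScr and replicate 1 of shEN1 #2, named by their labels, stood apart from the other 6 on the first principal component of log2 CPM, which held 44.4% of the variance. Fold changes, ranges and coefficients of variation that rest on them are also given without both. All 8 epithelial markers examined were detected in every library, whereas 4 of 6 fibroblast markers, 2 of 5 leukocyte markers (*PTPRC* and *CD3E*) and 2 of 4 endothelial markers (*CDH5* and *KDR*) had 0 counts in all of them.

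No difference between the shEN1 and shScr labels passed the test for any of the 10 genes. In edgeR's quasi-likelihood test 0 of the 10 passed an adjusted p of 0.05, beside 0.0% of all 14333 genes tested, and 0 of the 10 had an unadjusted p below 0.05, beside 0.307% (44 genes). DESeq2 called 0 of the 10 genes, beside 0.014% (2 genes), and limma-voom called 0 genes in all. The values of the labels overlapped for all 10 genes, where 0.419% of all genes tested did not overlap. The log2 fold changes lay between -0.096 and 0.146 with a median of 0.052, and 7 of the 10 were above 0, beside 48.9% of all genes and a median over all genes of -0.003. For each of the 10 genes the difference between labels was smaller than the SD within a label.

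**Figure D1:**
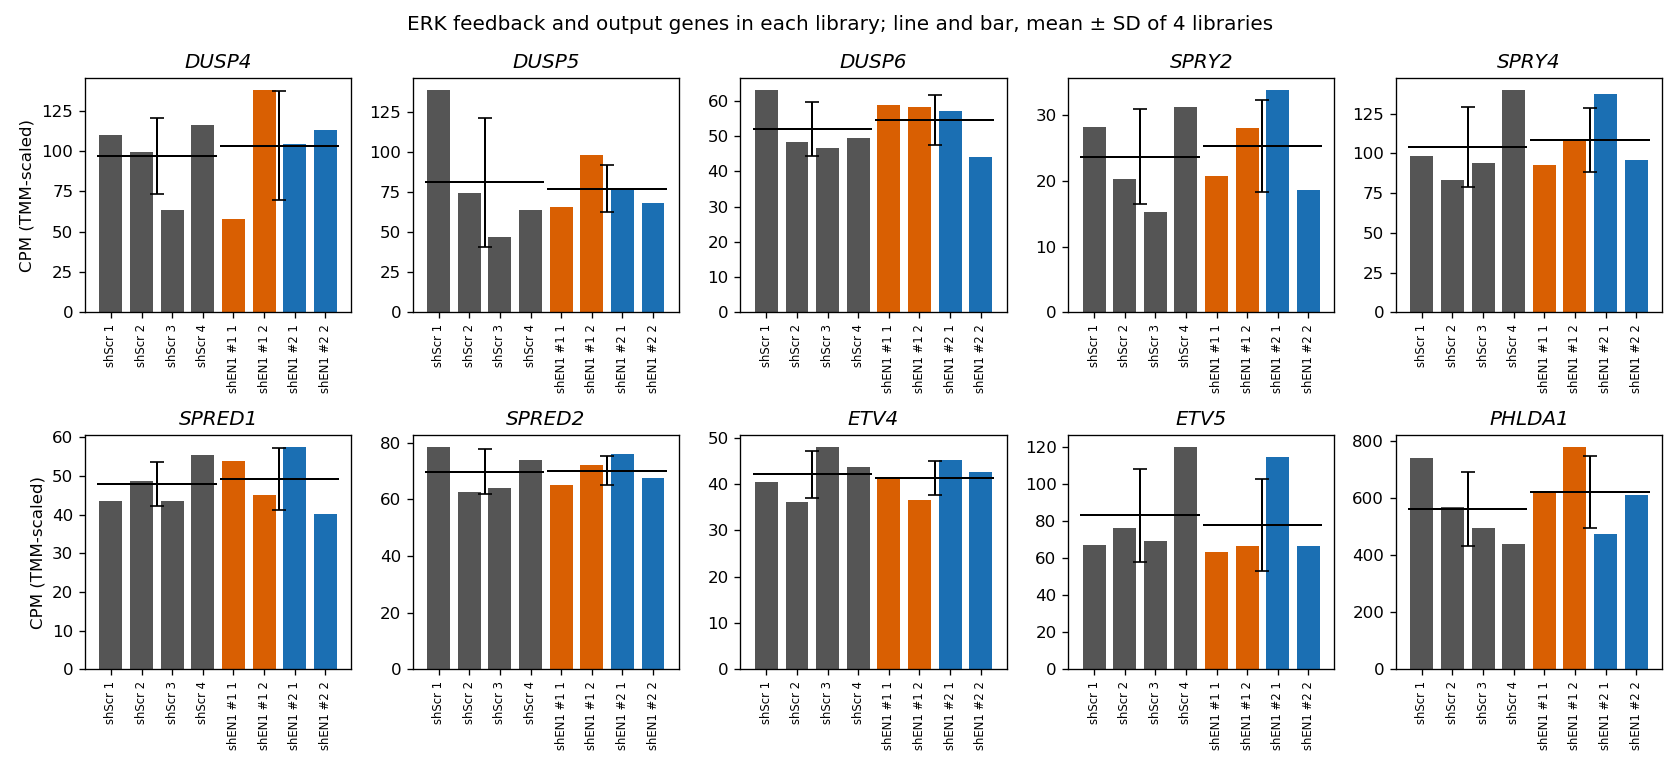
CPM (TMM-scaled, linear axis from 0) of each of the 10 genes in the 8 libraries, with bars for single libraries (grey, shScr; orange, shEN1 #1; blue, shEN1 #2) and a black line with an error bar for the mean ± SD of the 4 libraries of each label. The means of the labels lie within each other's SD in every panel, while single shScr libraries differ by up to 2.97-fold (*DUSP5*).

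The nuclear phosphatase *DUSP4* (gene 1846; chr8:29190581-29208201, minus strand, GRCh37, as for all gene positions that follow) was at 109.9, 99.5, 63.3 and 115.9 CPM under the shScr label, at 57.6 and 138.2 CPM under the shEN1 #1 label and at 104.7 and 113.1 CPM under the shEN1 #2 label. The lowest values came from shScr replicate 3 and shEN1 #1 replicate 1, and both lay below the next library at 99.5 CPM. The means were 97.1 ± 23.6 and 103.4 ± 33.7 CPM (SD, n = 4 each), a log2 fold change of 0.09 with a 95% interval of -0.50 to 0.68. The sign of this difference rested on single libraries: without shScr replicate 3 it was -0.068, and without shEN1 #1 replicate 2 it was -0.086.

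*DUSP5* (gene 1847; chr10:112257665-112271291, plus strand), which dephosphorylates ERK in the nucleus, had the widest range of the 10 genes. It was at 138.7, 74.5, 46.7 and 63.5 CPM under the shScr label, at 65.4 and 97.6 CPM under the shEN1 #1 label and at 76.9 and 68.0 CPM under the shEN1 #2 label. Both its highest library (shScr replicate 1) and its lowest (shScr replicate 3) carried the shScr label. The log2 fold change between labels was -0.07 (95% interval -0.75 to 0.60) and turned to 0.323 without shScr replicate 1 and to 0.034 in limma-voom.

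*DUSP6* (gene 1848; chr12:89741012-89746278, minus strand), the cytoplasmic ERK phosphatase and the gene most often used as a readout of the pathway, varied little. It was at 63.3, 48.5, 46.8 and 49.6 CPM under the shScr label and at 59.0, 58.2, 57.2 and 44.03 CPM under the shEN1 label (#1 replicates 1 and 2, then #2 replicates 1 and 2). The first 3 of the shEN1 libraries lay close together and the fourth was the lowest of all 8. The means of 52.1 ± 7.59 and 54.6 ± 7.09 CPM (SD, n = 4 each) gave a log2 fold change of 0.07 (standard error 0.14, 95% interval -0.24 to 0.38). With the constructs pooled, a change of *DUSP6* by more than 1.30-fold upward or to less than 0.845 of the shScr level lay outside the interval. The intervals of single constructs were wider, at 0.859 to 1.48 of the shScr level for shEN1 #1 and 0.74 to 1.28 for shEN1 #2. An unnamed gene on the opposite strand overlaps *DUSP6*, and since the strand setting of the counting is not given in the sources used here, reads of the pair cannot be told apart.

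Among the Sprouty genes, *SPRY2* (gene 10253; chr13:80910111-80915261, minus strand), an inhibitor of RAS-ERK signalling downstream of receptor tyrosine kinases, was at 28.2, 20.3, 15.3 and 31.2 CPM under the shScr label, at 20.7 and 28.04 CPM under the shEN1 #1 label and at 33.9 and 18.6 CPM under the shEN1 #2 label. *SPRY4* (gene 81848; chr5:141689992-141706020, minus strand), which acts at the same level of the pathway, was at 98.5, 83.3, 94.1 and 140.3 CPM under the shScr label, at 93.0 and 108.2 CPM under the shEN1 #1 label and at 137.4 and 96.1 CPM under the shEN1 #2 label. Both genes were highest in shScr replicate 4 and shEN1 #2 replicate 1, the libraries that stood apart. For *SPRY4* these values of 137.4 and 140.3 CPM were separated from the other 6 libraries, which ended at 108.2 CPM. The log2 fold changes between labels were 0.09 for *SPRY2* (95% interval -0.48 to 0.66) and 0.06 for *SPRY4* (95% interval -0.34 to 0.47). Without both libraries that stood apart they were 0.077 and 0.105, and without shEN1 #2 replicate 1 alone they turned to -0.083 and -0.072. The log2 range of *SPRY4* was 0.751 over 8 libraries and 0.377 over the other 6, and that of *SPRY2* was 1.15 and 0.881. *SPRY4-AS1* lies on the opposite strand of *SPRY4* and could share its reads.

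The SPRED genes, whose proteins bring the RAS GTPase-activating protein neurofibromin to the membrane, were among the steadiest. *SPRED1* (gene 161742; chr15:38545037-38649450, plus strand) was at 43.7, 48.8, 43.6 and 55.5 CPM under the shScr label and at 53.9, 45.2, 57.6 and 40.1 CPM under the shEN1 label, a log2 fold change of 0.04 (95% interval -0.28 to 0.36). *SPRED2* (gene 200734; chr2:65537985-65659771, minus strand) was at 78.7, 62.7, 64.0 and 74.1 CPM under the shScr label and at 64.9, 72.2, 76.1 and 67.4 CPM under the shEN1 label. Its log2 fold change was 0.007 with a 95% interval of -0.25 to 0.26, the narrowest of the 10 genes. The range of *SPRED2* over all 8 libraries was 0.328 on the log2 scale, and 6.75% of the genes tested had a smaller range.

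The ETS factors behaved differently from each other. *ETV4* (gene 2118; chr17:41605212-41656988, minus strand) was at 40.4, 36.1, 48.1 and 43.7 CPM under the shScr label and at 41.0, 36.6, 45.2 and 42.5 CPM under the shEN1 label, with a log2 fold change of -0.026 (95% interval -0.30 to 0.25). *ETV5* (gene 2119; chr3:185764103-185828107, minus strand) was at 67.0, 76.4, 69.0 and 120.2 CPM under the shScr label, at 63.3 and 66.5 CPM under the shEN1 #1 label and at 114.7 and 66.6 CPM under the shEN1 #2 label. Its 2 highest libraries were again those that stood apart, at 114.7 and 120.2 CPM against 63.3 to 76.4 CPM in the other 6. The range of *ETV5* was 0.924 on the log2 scale over 8 libraries and 0.27 over those 6. Its log2 fold change of -0.096 (95% interval -0.64 to 0.45) was -0.116 without both of them and 0.136 without shScr replicate 4 alone. The ratio of *ETV5* to *ETV4* counts was 2.75 in shScr replicate 4 and 2.54 in shEN1 #2 replicate 1, and between 1.44 and 2.11 in the other libraries. *DGKG* overlaps *ETV5* on the same strand, *ETV5-AS1* overlaps it on the opposite strand and *DHX8* overlaps *ETV4* on the opposite strand, so part of these reads may belong to neighbours.

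*PHLDA1* (gene 22822; chr12:76419227-76425556, minus strand) had the highest level per transcript length of the 10 genes. It was at 743, 571, 496 and 440.1 CPM under the shScr label, at 619 and 782 CPM under the shEN1 #1 label and at 475 and 613 CPM under the shEN1 #2 label. The highest values came from shEN1 #1 replicate 2 and shScr replicate 1 and the lowest from shScr replicate 4 and shEN1 #2 replicate 1, so each end of the range held a library of each label. The means were 563 ± 132 and 622 ± 126 CPM (SD, n = 4 each), a log2 fold change of 0.15 (standard error 0.19, 95% interval -0.28 to 0.57). Its unadjusted p of 0.460 in edgeR was the lowest of the 10 genes. *PHLDA1-AS1* lies on the opposite strand.

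**Figure D2:**
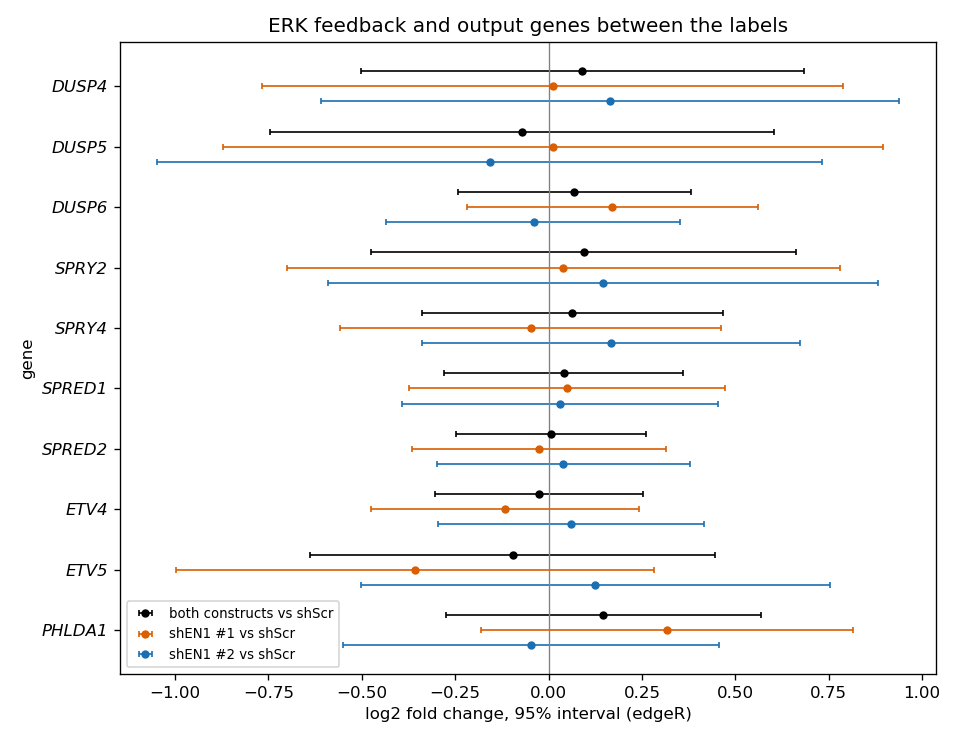
Log2 fold change of each of the 10 genes with its 95% interval from edgeR, for both constructs pooled against shScr (black), shEN1 #1 against shScr (orange) and shEN1 #2 against shScr (blue); the vertical line marks 0. All intervals include 0, and the widest belong to *DUSP4*, *DUSP5* and *SPRY2*.

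Each construct was also set against the shScr libraries (the same 4) by fitting 3 groups, so the comparisons share their controls. For shEN1 #1, 0 of the 10 genes passed an edgeR adjusted p of 0.05 (0.0% of all genes tested) and 0 had an unadjusted p below 0.05 (0.656% of all genes). For shEN1 #2 the counts were again 0 and 0, beside 0.0% and 0.3% of all genes. *PHLDA1* had log2 fold changes of 0.32 (standard error 0.22) for shEN1 #1 and -0.05 (0.23) for shEN1 #2. *ETV5* had -0.36 (0.28) and 0.13 (0.28), and *DUSP6* had 0.17 (0.17) and -0.04 (0.18). The other 7 genes lay between -0.117 and 0.049 for shEN1 #1 and between -0.158 and 0.167 for shEN1 #2. DESeq2 called 3 genes for shEN1 #1 (0.0209%) and 0 for shEN1 #2, and 0 of the 10 ERK genes in either.

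Between the constructs themselves 0 of the 10 genes passed (edgeR adjusted p, 0.0% of all genes tested), and 0 had an unadjusted p below 0.05, beside 1.07%. The difference of shEN1 #2 against shEN1 #1 was largest for *ETV5*, at a log2 fold change of 0.48 (95% interval -0.25 to 1.21, unadjusted p = 0.169 and adjusted p = 1.00 in edgeR). For *PHLDA1* it was -0.37 (95% interval -0.95 to 0.22). The libraries of shEN1 #2 disagreed with each other on *ETV5* (114.7 and 66.6 CPM), whereas those of shEN1 #1 were close (63.3 and 66.5 CPM).

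Although the labels did not separate the 10 genes, the genes were not uniform across libraries. The counts behind a single value lay between 532 and 26574, so that counting error alone allows a coefficient of variation between 0.692% (*PHLDA1*) and 3.38% (*SPRY2*). The observed coefficients of variation over the 8 libraries were 3.78 to 30.1 times as large. They were 35.6% for *DUSP5*, 28.8% for *ETV5*, 27.2% for *SPRY2*, 27.1% for *DUSP4*, 20.8% for *PHLDA1* and 19.9% for *SPRY4*. Over the 6 libraries without those that stood apart, it was 6.49% for *ETV5*, 8.47% for *SPRY4*, 23.9% for *SPRY2* and 16.8% for *PHLDA1*. The coefficient for *SPRED1* was also lower over these 6 than over all 8. For *DUSP5* it was higher over these 6, at 39.5%, and it was also higher for *DUSP4*, *DUSP6*, *ETV4* and *SPRED2*. Over all 8, *SPRED1*, *DUSP6*, *ETV4* and *SPRED2* followed with 13.3%, 13.0%, 9.81% and 8.64%. Depth therefore does not limit these values, and the spread is between libraries. The median log2 range of the 10 genes was 0.79, against 0.757 for all genes tested and 0.548 for the 6836 genes of like expression, with 6 of the 10 above the latter. Over the 6 libraries without those that stood apart, the median range of the 10 genes was 0.474 and that of all genes 0.585. The median for genes of like expression was not taken over these 6, so that comparison cannot be made there.

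Divided by the length of the main GENCODE transcript, the levels of the 10 genes fell into an order. *PHLDA1* was first at 100 ± 20.8 CPM per kb (SD, n = 8), and its lowest library, at 74.4 CPM per kb, lay above every value of the next gene. *DUSP5* followed at 31.9 ± 11.3, *SPRY4* at 21.7 ± 4.32, *ETV5* at 19.7 ± 5.68, *DUSP4* at 18.1 ± 4.89 and *ETV4* at 17.9 ± 1.75 CPM per kb. *SPRED2* (15.5 ± 1.34), *DUSP6* (14.7 ± 1.91), *SPRY2* (10.7 ± 2.92) and *SPRED1* (6.68 ± 0.886 CPM per kb) had the lowest levels. From *DUSP5* downward the ranges of all neighbours in this order overlapped.

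**Figure D3:**
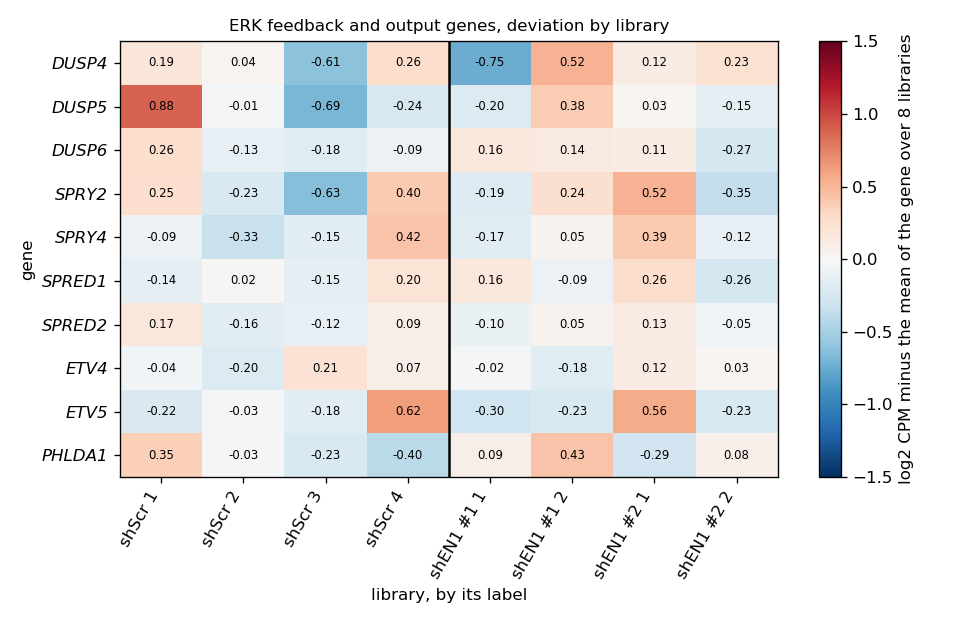
Log2 CPM of each gene in each library minus that gene's mean over the 8 libraries (colour and printed number; red, above the mean), with a vertical line between the labels. *SPRY2*, *SPRY4*, *SPRED1* and *ETV5* are all highest in shScr 4 and shEN1 #2 1, where *PHLDA1* is lowest; *DUSP4* is lowest in shScr 3 and shEN1 #1 1.

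The 10 genes arranged the libraries in pairs that crossed the labels. By the root mean square difference in log2 CPM over the 10 genes, the library nearest to each of the 8 libraries carried the other label in 8 of 8 cases, and the choices were mutual, which gave 4 pairs. The pairs were shScr replicate 4 with shEN1 #2 replicate 1 (0.134), shScr replicate 2 with shEN1 #2 replicate 2 (0.18), shScr replicate 1 with shEN1 #1 replicate 2 (0.21) and shScr replicate 3 with shEN1 #1 replicate 1 (0.287). Over all 14333 genes the nearest library carried the other label in 7 of 8 cases, with shEN1 #1 replicate 2 as the exception, and 3 of the 4 pairs were mutual. Libraries of the same label were a median of 0.452 apart over the 10 genes (12 pairs of libraries, 0.333 to 0.675) and libraries of different labels 0.426 (16 pairs, 0.134 to 0.627). The column headers of the deposited tables number the read files of the alignment from 17 to 32, with consecutive numbers for each library. In each of the 4 pairs the header numbers of the libraries were 8 apart, and no other libraries were 8 apart. What these numbers stand for beyond the order of the read files is not given in the sources used here, and the pairs were found in these values, so they are described without a test.

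Within these pairs *PHLDA1* and *ETV5* differed in a single direction. *PHLDA1* was higher in the library labelled shEN1 in 4 of 4 pairs (743 and 782, 571 and 613, 496 and 619, 440.1 and 475 CPM, shScr first), by a mean of 0.152 on the log2 scale. *ETV5* was lower in the library labelled shEN1 in 4 of 4 pairs (67.0 and 66.5, 76.4 and 66.6, 69.0 and 63.3, 120.2 and 114.7 CPM), with a mean difference of -0.10. Between shScr replicate 1 and shEN1 #1 replicate 2 the *ETV5* difference was only -0.012, on 2224 and 2259 reads before scaling. That is below its counting error (coefficient of variation 1.86%), so the direction in this pair is not resolved. *PHLDA1* and *ETV5* are 2 of the 10 genes, beside 8.37% of all genes tested that kept a single direction in 4 of 4 pairs (3.7% higher and 4.67% lower). The other 8 genes were higher under the shEN1 label in 2 or 3 of the 4 pairs. The pairs were read from these values and headers after the fact, so no p-value is given.

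Read through these pairs, the 10 genes formed several patterns. *SPRY2*, *SPRY4*, *SPRED1* and *ETV5* had their 2 highest values in shScr replicate 4 and shEN1 #2 replicate 1, which is 40.0% of the 10 genes beside 18.9% of all genes tested. The margin was wide for *ETV5* and *SPRY4* and small for *SPRED1* (55.5 and 57.6 CPM against 53.9 CPM in the next library). *PHLDA1* had its 2 lowest values in the same pair, as did 19.2% of all genes. *DUSP5* and *PHLDA1* had their 2 highest values in shScr replicate 1 and shEN1 #1 replicate 2 (5.65% of all genes), and *DUSP4* had its 2 lowest in shScr replicate 3 and shEN1 #1 replicate 1 (6.83% of all genes). Neither the 2 highest nor the 2 lowest values of *DUSP6*, *SPRED2* or *ETV4* fell in any of the pairs. The ratio of *DUSP4* to *DUSP6* counts showed the last pair as well, at 1.35 and 0.976 against 1.74 to 2.57 in the other libraries.

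Levels of 6 of the 8 epithelial markers moved with the first of these pairs. These 6 (*EPCAM*, *CDH1*, *KRT7*, *KRT19*, *CLDN4* and *CLDN7*) had their 2 lowest values in shScr replicate 4 and shEN1 #2 replicate 1, beside 19.2% of all genes tested. *KRT8* and *KRT18* had their 2 lowest values in shScr replicate 3 and shEN1 #1 replicate 1 instead (6279 and 6094 CPM, 3586 and 3628 CPM). Of the 3 examples given here, chosen after their values were seen, *CLDN7* was at 25.8 and 18.1 CPM there and between 61.6 and 148.6 CPM in the other 6 libraries. *KRT7* was at 198 and 192 CPM there and between 534 and 1080.0 CPM in the other 6 libraries. *KRT19* was at 400.3 and 321 CPM there and between 832 and 1648 CPM elsewhere. The summed level of the 8 markers was 11750.0 to 16080.0 CPM under the shScr label and 11480.0 to 18750.0 CPM under the shEN1 label. Most of this sum came from *KRT8* (6094 to 9573 CPM) and *KRT18* (3586 to 5628 CPM). In bulk libraries of a cell line, fewer cells expressing a marker and less of its RNA per cell cannot be told apart. The part of these markers in the levels of *SPRY4*, *ETV5* or *PHLDA1* was not tested. Fibroblast markers summed to at most 4.05 CPM and endothelial markers to at most 0.676 CPM in any library. Leukocyte markers, mostly *CD68*, summed to 9.40 to 29.2 CPM under the shScr label and 8.56 to 35.7 CPM under the shEN1 label. Of these markers, *PTPRC* and *CD3E* had 0 counts in every library.

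Patterns over the 8 libraries were compared between genes by the root mean square difference of their deviations in log2 CPM, where a smaller value means a closer pattern. *DUSP6* and *SPRED2* were closest of all pairs among the 10 genes (0.144), but both vary little, with deviations of their own of 0.176 and 0.116. The pair *SPRY4* and *ETV5* (0.187) was closer than the deviation of either gene from its own mean (0.255 and 0.349), as was *SPRY2* with *SPRY4* (0.24, own deviation of *SPRY2* 0.38). *DUSP5* was nearest to *PHLDA1* (0.308) and farthest from *ETV5* (0.6). *DUSP4* was nearest to *SPRY2* (0.349). *ETV4* and *SPRED1* were nearest to *SPRED2* (0.169 and 0.193), at a distance larger than their own deviations (0.133 and 0.178), and *PHLDA1* was nearest to *DUSP6* (0.246). Among all genes tested, *CDC42EP3* (0.0615), *RNF139* (0.0719), *EEF1AKMT1* (0.0754) and *PAM* (0.0779) were among the genes with the patterns most like that of *DUSP6*.

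The remaining genes of the pathway were read from 5 lists. Over all genes tested, 0.0% passed an edgeR adjusted p of 0.05 between the labels and 0.307% an unadjusted p of 0.05. A log2 fold change above 0 was found for 48.9% of all genes. The genes of a list share libraries, so counts of direction are not counts of independent observations. Of the 18 genes of the RAS-RAF-MEK-ERK core, 0 passed an edgeR adjusted p of 0.05 or an unadjusted p of 0.05 between the labels, with a median log2 fold change of 0.039, 14 genes above 0 and 4 below. Of its genes, the scaffold *KSR1* and the kinase *MAPK3* (ERK1) had the widest ranges. *MAPK3* was at 40.3, 38.8, 34.9 and 47.9 CPM under the shScr label and at 25.97, 43.8, 49.9 and 46.7 CPM under the shEN1 label. Its lowest values lay in shScr replicate 3 and shEN1 #1 replicate 1, the pair in which *DUSP4* was lowest, and its highest in the pair in which *SPRY4* and *ETV5* were highest. *KSR1* was at 5.53 and 5.79 CPM in the latter pair and at 6.47 to 10.9 CPM in the other libraries.

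Of 10 RAS GTPase-activating proteins and other brakes, 0 passed either threshold, with a median of 0.086 and 7 genes above 0, beside 48.9% of all genes. *SPRY1*, another Sprouty gene, was at 16.3, 19.3, 26.5 and 35.1 CPM under the shScr label and at 24.4, 17.1, 36.4 and 18.1 CPM under the shEN1 label. As with *SPRY2* and *SPRY4*, its highest values were in shScr replicate 4 and shEN1 #2 replicate 1. *SPRED3* was low throughout, at 0.459 to 2.21 CPM. Of 9 other MAP kinase phosphatases, 8 were tested and 0 passed (median 0.034), while *DUSP2* had 0 counts in every library. *DUSP2* and *DUSP1* are named after their values were seen. *DUSP10* was at 1.07 to 4.82 CPM and *DUSP8* at 0.517 to 1.76 CPM, and *DUSP1* was at 2.44 to 4.67 CPM. Per length, *DUSP10* and *DUSP8* averaged 0.987 and 0.205 CPM per kb, beside 14.7 CPM per kb for *DUSP6*.

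Of 14 other ERK output genes, 0 passed either threshold between the labels, and 13 of the 14 log2 fold changes were above 0, beside 48.9% of all genes (median 0.097). The genes share libraries, so this count is not a count of independent observations, and the median with replicate numbers as a block was -0.073. Replicates 3 and 4 exist only under the shScr label, so the label difference in that fit rests on replicates 1 and 2. The numbers were also not taken as pairing. Their median log2 range of 1.225 was wider than the 0.79 of the 10 genes. *HBEGF*, an EGF receptor ligand, was at 32.96, 13.5, 13.98 and 49.7 CPM under the shScr label and at 27.4, 22.7, 61.7 and 11.9 CPM under the shEN1 label. *IER3*, an immediate early gene, was lowest where *HBEGF* was highest, at 0.454 and 0.406 CPM against 0.918 to 1.85 CPM in the other libraries. These *IER3* values are near the floor, resting on 17 and 16 reads against 32 to 63 in the other libraries. In all, 5 of the 14 had their 2 highest values in shScr replicate 4 and shEN1 #2 replicate 1, beside 18.9% of all genes tested. Another 3 had their 2 lowest there, beside 19.2%. The pair highest for *DUSP5* and *PHLDA1* was shScr replicate 1 and shEN1 #1 replicate 2. It held the 2 highest values of 6 of the 14, beside 5.65% of all genes. The pair lowest for *DUSP4*, shScr replicate 3 and shEN1 #1 replicate 1, held the 2 lowest values of 5, beside 6.83%. Examples chosen after their values were seen are *CCND1*, which encodes cyclin D1, at 321 and 325 CPM in the last pair against 554 to 791 CPM elsewhere, and the receptor tyrosine kinase gene *EPHA2*, at 886 and 895 CPM in the first pair against 415 to 605 CPM elsewhere.

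**Figure D4:**
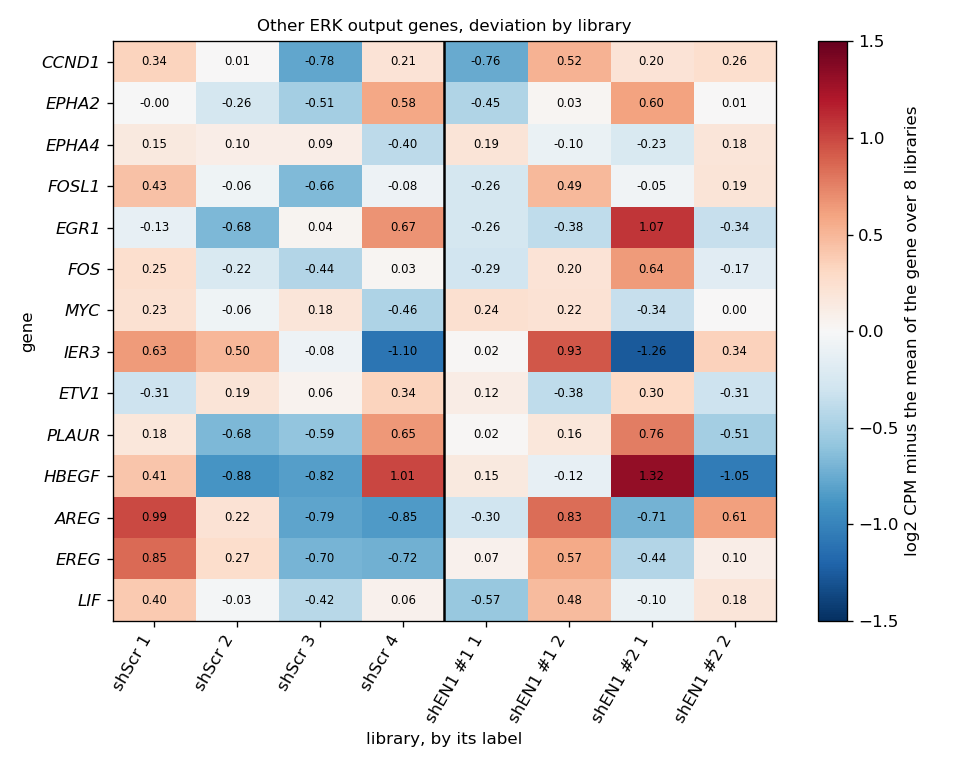
Log2 CPM of 14 other ERK output genes in each library minus each gene's mean over the 8 libraries (colour and printed number), with a vertical line between the labels. *HBEGF* and *EPHA2* are highest and *IER3* lowest (on 17 and 16 reads) in shScr 4 and shEN1 #2 1, and *CCND1* is lowest in shScr 3 and shEN1 #1 1.

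Of the 10 genes of the parallel p38 and JNK pathways, 0 passed either threshold (median -0.010, 5 above and 5 below 0). *MAPK13*, a p38 kinase, was at 35.4 and 31.2 CPM in shScr replicate 4 and shEN1 #2 replicate 1 and at 58.6 to 100.4 CPM in the other libraries. *MAP2K6*, which activates p38, was at 0.728 CPM or below in every library.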

How the data were processed

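RNA-seq of the SUIT2 cell line was analysed in 8 libraries, grouped by their labels (4 shScr, 2 shEN1 #1, 2 shEN1 #2). The deposited values are raw counts of reads per gene (whole numbers). The study's methods name HISAT2 for the alignment (to hg19, paired ends) and featureCounts for the counts, while the submitters' processing notes name mm9 for these human libraries. Annotation and strand setting are not given in the sources used here. Of 25702 gene numbers, 23696 found a symbol in RefSeq, which served for names. Positions and transcript lengths came from GENCODE 44 lifted to GRCh37, and promoter sequences from RefSeq on GRCh38.p14.

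Low counts were removed by filterByExpr (minimum 10; 14333 genes remained) and the rest scaled with TMM and tested with edgeR 4.0.16 (robust glmQLFit, glmQLFTest) in R 4.3.3, pooling the constructs, with Benjamini-Hochberg adjustment over all genes tested and a threshold of 0.05. A fit with 3 groups gave each construct. Log2 CPM used a prior count of 2. Standard errors are the log2 fold change over the square root of F, and intervals are 95%. The script was tested on simulated data. Alternatives were DESeq2 1.42.0, limma-voom (limma 3.58.1), other scalings and filters, the replicate number as a block, and each library left out. Deviations of same-numbered libraries correlated at between -0.332 and 0.437, so the numbers were not taken as pairing.

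The 10 genes, the pathway lists and the cell type markers were chosen with earlier results of these data known. Genes named from the other lists are the 2 with the widest log2 range in each. Genes like *DUSP6* are the 5 nearest, of which 1 is not reported here. Others are marked where named. The murine organoid experiment was not analysed here.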

Additional observations from a re-analysis of the deposited data

Results flagged for a closer look

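In 24 groups of 4 libraries (each of the 10 genes, *EN1* and the TMM factor, under each label), 4 held a library far from the other 3 by Dixon's criterion, where chance gives about 1.2. The groups share the same libraries and are not independent, so 4 beside 1.2 is not a test of an excess. All 4 were in the libraries labelled shEN1. *ETV5*, *EN1* and the TMM factor were flagged in the same library, shEN1 #2 replicate 1, which stood apart on the first principal component. *ETV5* stood at 114.7 CPM in shEN1 #2 replicate 1, against 63.3 to 66.6 CPM in the other libraries of that label (gap over range 0.914). *DUSP6* stood at 44.03 CPM in shEN1 #2 replicate 2, against 57.2 to 59.0 CPM (0.893). *EN1* stood at 1.346 CPM in shEN1 #2 replicate 1, against 5.41 to 6.70 CPM (0.867), and the TMM factor of the same library was 1.071 (0.928). *EN1* was also lowest among the shScr libraries in replicate 4, at 2.51 CPM, and *ETV5* was highest there, at 120.2 CPM.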

How the results depend on the processing

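None of the 10 ERK genes was called under any alternative. The lowest unadjusted p was that of *DUSP4* (0.0477 in edgeR, log2 fold change 0.262) with 4 libraries left out (shScr replicates 3 and 4, shEN1 #1 replicate 1 and shEN1 #2 replicate 1). In that fit 1 of the 10 genes had an unadjusted p below 0.05, beside 1512 of all 14273 genes tested, and the adjusted p of *DUSP4* was 0.469. This alternative and the removal of shScr replicate 4 with shEN1 #2 replicate 1 were chosen after seeing the data. Over all genes the pooled count of 0 became 2 in DESeq2 (*VAMP7* and a gene with no symbol), 1 with the replicate block, 1 without the libraries that stood apart and 1 with 4 left out (*VAMP7* each), and 44 at an unadjusted p. Leaving out each library in turn gave 0 to 1, the 1 being *VAMP7* without shScr replicate 4. For shEN1 #1 the count became 3 in DESeq2 and 1 without a filter, and 0 to 1 with each library left out; for shEN1 #2 and between the constructs it stayed 0 in all alternatives run. The cause of these differences was not tested.

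The signs of the 10 log2 fold changes were not stable. With the replicate block they turned to -0.067 for *DUSP4*, -0.025 for *DUSP6*, -0.003 for *SPRED2*, 0.112 for *ETV4*, 0.095 for *ETV5* and -0.091 for *PHLDA1*, and *EN1* was at 0.103; the block changed no call among the 10 genes. *DUSP5* was 0.034 in limma-voom. Without the libraries that stood apart *SPRED2* was -0.008. With 4 left out *DUSP6* was -0.130, *SPRY2* -0.056, *SPRED1* -0.118, *SPRED2* -0.018 and *ETV4* 0.046. Leaving out each library in turn gave -0.086 to 0.289 for *DUSP4*, -0.261 to 0.323 for *DUSP5*, -0.083 to 0.254 for *SPRY2*, -0.072 to 0.242 for *SPRY4*, -0.046 to 0.125 for *SPRED1*, -0.042 to 0.069 for *SPRED2*, -0.092 to 0.044 for *ETV4* and -0.347 to 0.136 for *ETV5*. *DUSP6* (0.021 to 0.177), *PHLDA1* (0.017 to 0.309) and *EN1* (0.057 to 0.569) kept their sign. Log2 CPM ranges of the 10 genes moved by less than the spread between libraries under other scalings.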
